A study of Homo sapiens with 24 samples.

Results

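The aminoacyl-tRNA synthetases were described as 36 genes, chosen by symbol from a fixed list and found in both deposited tables among 35587 symbols. Of these, 20 encode cytosolic enzymes and 16 encode mitochondrial enzymes, whose symbols end in 2. Their mRNAs were measured in MOLM14 and OCI-AML2, established human acute myeloid leukaemia cell lines, each given the solvent DMSO, the compound AZ2 or the compound ARM165 for 24 h. Each of the 6 groups held 4 libraries. The series title concerns PI3Kγ and AKT signalling and a heterobifunctional degrader. The doses, and whether the 4 libraries of a group came from separate cultures, were not given, so the doses of AZ2 and ARM165 are not known to match. A p-value here covers only library-to-library spread, possibly of technical origin.

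Aminoacyl-tRNA synthetases join each amino acid to its tRNA, the step that fixes the genetic code. Most amino acids have a cytosolic enzyme and a separate nuclear-encoded enzyme that is imported into mitochondria, where it serves the translation of the mitochondrial genome. GARS and KARS each supply both compartments from a single gene, EPRS carries glutamate and proline activities in a single chain, and the cytosolic phenylalanine enzyme is built from the separate subunits FARSA and FARSB. Several cytosolic enzymes (EPRS, IARS, LARS, MARS, QARS, RARS, KARS and DARS) sit in the multisynthetase complex. Uncharged tRNA activates the kinase GCN2 (EIF2AK4), which raises translation of the transcription factor ATF4, and several cytosolic synthetase genes are known ATF4 targets.

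RefSeq promoter windows (GRCh38.p14, 250 bases before to 50 after an annotated start) were matched for 30 of the 36 genes, 16 cytosolic and 14 mitochondrial. The genes without an entry in that table were DARS, LARS, VARS, YARS, AARS2 and VARS2. A composite element bound by ATF4 with C/EBP partners was searched as TGATGNAA on both strands, so that it also reads TTNCATCA. It stood in 3.62% of 35116 promoter windows of the same length. The stretches below are shown because they belong to cytosolic enzymes whose mRNAs were higher with ARM165 in both lines, and capitals mark the element.
AARS: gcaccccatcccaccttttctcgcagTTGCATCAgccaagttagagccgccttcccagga
CARS: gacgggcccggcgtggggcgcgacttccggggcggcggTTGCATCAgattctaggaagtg
GARS: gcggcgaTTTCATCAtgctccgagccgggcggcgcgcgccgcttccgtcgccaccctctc
IARS: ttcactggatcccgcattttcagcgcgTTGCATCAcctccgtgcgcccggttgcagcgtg
MARS: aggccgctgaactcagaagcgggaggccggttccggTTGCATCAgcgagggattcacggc
TARS: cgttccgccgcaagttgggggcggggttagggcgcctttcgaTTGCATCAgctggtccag
The stretches are chr16:70289660-70289719 (minus strand) for AARS, chr11:3057404-3057463 (minus) for CARS and chr7:30594838-30594897 (plus) for GARS. Those of IARS, MARS and TARS are chr9:92293678-92293737 (minus), chr12:57488028-57488087 (plus) and chr5:33440925-33440984 (plus). In 5 of them the stretch runs from position −40 to 20 around the RefSeq start (there is no position 0), and in AARS the element lies at −187 to −180. GARS, CARS and TARS each have 2 RefSeq starts, and the element was in 1 of the 2 windows. The letters were not in the windows of SARS and WARS, the other cytosolic genes that were higher in both lines.

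The same element was found in NARS, whose mRNA was lower with ARM165 in MOLM14, and in YARS2, a mitochondrial enzyme that was lower in both lines. These are shown as members that carry the letters without being higher.
NARS: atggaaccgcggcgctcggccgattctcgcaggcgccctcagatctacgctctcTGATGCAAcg
YARS2: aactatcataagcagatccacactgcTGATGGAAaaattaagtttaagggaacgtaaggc
They are chr18:57621813-57621876 and chr12:32756061-32756120, both on the minus strand. By call, the element was in 6 of the 8 cytosolic genes higher in MOLM14, in 1 of the 7 lower ones with a window and in 1 of the 10 lower mitochondrial ones with a window. In OCI-AML2 it was in 6 of the 10 higher cytosolic genes with a window, 0 of the 5 lower ones and 1 of the 7 lower mitochondrial ones with a window, and NARS was not called there. A match is a stretch of letters and not a measured binding site.

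The E-box CACGTG, which reads the same on both strands and is bound by MYC and other basic helix-loop-helix factors, stood in 7.26% of all promoter windows. It was in the windows of 3 mitochondrial enzymes, all lower with ARM165 in both lines, and of IARS, which was higher in both. By call, it was in 3 of the 10 lower mitochondrial genes with a window in MOLM14 and 3 of the 7 in OCI-AML2. Among the higher cytosolic genes with a window it was in 1 of 8 and 1 of 10. The stretches of the 3 mitochondrial genes are shown, with the E-box in capitals.
MARS2: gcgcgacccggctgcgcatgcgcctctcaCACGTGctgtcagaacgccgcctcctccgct
EARS2: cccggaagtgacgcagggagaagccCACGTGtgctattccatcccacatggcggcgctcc
CARS2: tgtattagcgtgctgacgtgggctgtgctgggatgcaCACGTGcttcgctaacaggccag
They are chr2:197705329-197705388 (plus strand), chr16:23557331-23557390 (minus) and chr13:110706496-110706555 (minus). The core of the NRF1 motif, GCGCATGC, or GCATGCGC on the other strand, stood in 3.05% of windows and in those of MARS2 and YARS2. In MARS2 the matches on the 2 strands overlap each other.

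HARS and HARS2, the cytosolic and mitochondrial histidine enzymes, are transcribed away from each other on chromosome 5. Their RefSeq starts are at 140691370 and 140691455, with 84 bases between them. The stretch is shown because both genes share it and their mRNAs moved in opposite directions with ARM165.
HARS-HARS2: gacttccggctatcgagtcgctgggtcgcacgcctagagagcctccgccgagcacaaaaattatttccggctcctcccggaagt
It is chr5:140691371-140691454, given on the plus strand, and no motif is marked. In the GENCODE release 29 annotation the HARS model starts at 140691862 on the minus strand and the HARS2 model at 140691426 on the plus strand. Unlike the RefSeq starts, these leave no gap, and the start regions of the 2 models overlap. The kit was stranded per the labels, but the strand setting of the quantification was not given, so the split of reads in that overlap is uncertain.

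Sequencing depth lay between 35.4 M and 59 M estimated reads in a library. All 36 genes passed the filter on low values (a value of 10 or more in 4 or more of a line's libraries) in both lines, beside 15288 genes in all in MOLM14 and 15377 in OCI-AML2. Their lowest value in any library was 51.3 in MOLM14 and 34.4 in OCI-AML2. Values are normalized estimated reads per gene, scaled separately in each line, so levels were not compared between lines. All 8 myeloid markers passed the filter in both lines, and of 16 markers of other cell types 5 passed in MOLM14 and 3 in OCI-AML2. Among the latter, CD3E, CD2, MS4A1, HBA1 and KRT19 stayed under 10 in every library. The summed myeloid markers were 34300 to 36600 with DMSO and 22400 to 25100 with ARM165 in MOLM14, and 74900 to 83400 and 44400 to 46600 in OCI-AML2. The summed other markers were 2430 to 2770 and 3480 to 3940 in MOLM14, mostly KRT18, and 818 to 974 and 535 to 698 in OCI-AML2. LYZ, the largest part of the myeloid sum with DMSO, fell by 2.93 (adjusted p = 1.29e-15) in MOLM14 and by 1.27 (adjusted p = 1.11e-10) in OCI-AML2 on the log2 scale. The myeloid list moved both ways: of its 8 markers 4 rose and 3 fell in MOLM14 (median log2 change 0.29), and 1 rose and 4 fell in OCI-AML2 (median −0.57). Among all genes, 35.5% were called higher and 34% lower with ARM165 in MOLM14, and 34.2% and 31.6% in OCI-AML2. PTPRC, the pan-leukocyte CD45 gene, rose by 1.38 (adjusted p = 2.21e-11) and 0.68 (adjusted p = 3.85e-06), CD33 changed by −0.39 (adjusted p = 1.42e-05) and −0.73 (adjusted p = 6.89e-08), and CD68 by 0.54 (adjusted p = 4.95e-06) and −0.98 (adjusted p = 1.18e-07), in MOLM14 and OCI-AML2. The part of these shifts in the results below was not tested. PIK3CG mRNA, which encodes the catalytic subunit of PI3Kγ, fell by 0.52 on the log2 scale with ARM165 in MOLM14 (adjusted p = 4.63e-06) and by 1.31 in OCI-AML2 (adjusted p = 1.9e-11). In bulk RNA, fewer cells with a given mRNA and less of it per cell cannot be told apart.

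AZ2 left the synthetase mRNAs without a detected change. None of the 36 genes passed an adjusted p of 0.05 in limma's moderated test in MOLM14 (3 had an unadjusted p under 0.05, smallest adjusted p 0.675), where 0% of all genes were called. In OCI-AML2 none of the 36 was called (2 with an unadjusted p under 0.05, smallest adjusted p 0.72), against 0.111% of all genes. Most intervals were narrow. For WARS, the tryptophan enzyme, the libraries read 3979, 3998, 4318 and 4106 with DMSO and 4081, 3998, 3969 and 3894 with AZ2 in MOLM14. The MOLM14 libraries of IARS, the isoleucine enzyme, read 5851, 5784, 6221 and 5818 with DMSO and 5596, 5482, 5282 and 5437 with AZ2. All 4 AZ2 values lay below the DMSO values there, with a log2 change of −0.12 (95% interval −0.20 to −0.03, adjusted p = 0.675). In OCI-AML2 the mitochondrial phenylalanine enzyme FARS2 read 1043, 1041, 1006 and 1055 with DMSO and 808.8, 968.1, 925 and 838.1 with AZ2, a log2 change of −0.23 (95% interval −0.39 to −0.08, adjusted p = 0.72). No member's AZ2 change was called different between the lines (2 with an unadjusted p under 0.05, smallest adjusted p 0.735), as against 0.028% of all genes.

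**Figure D1:**
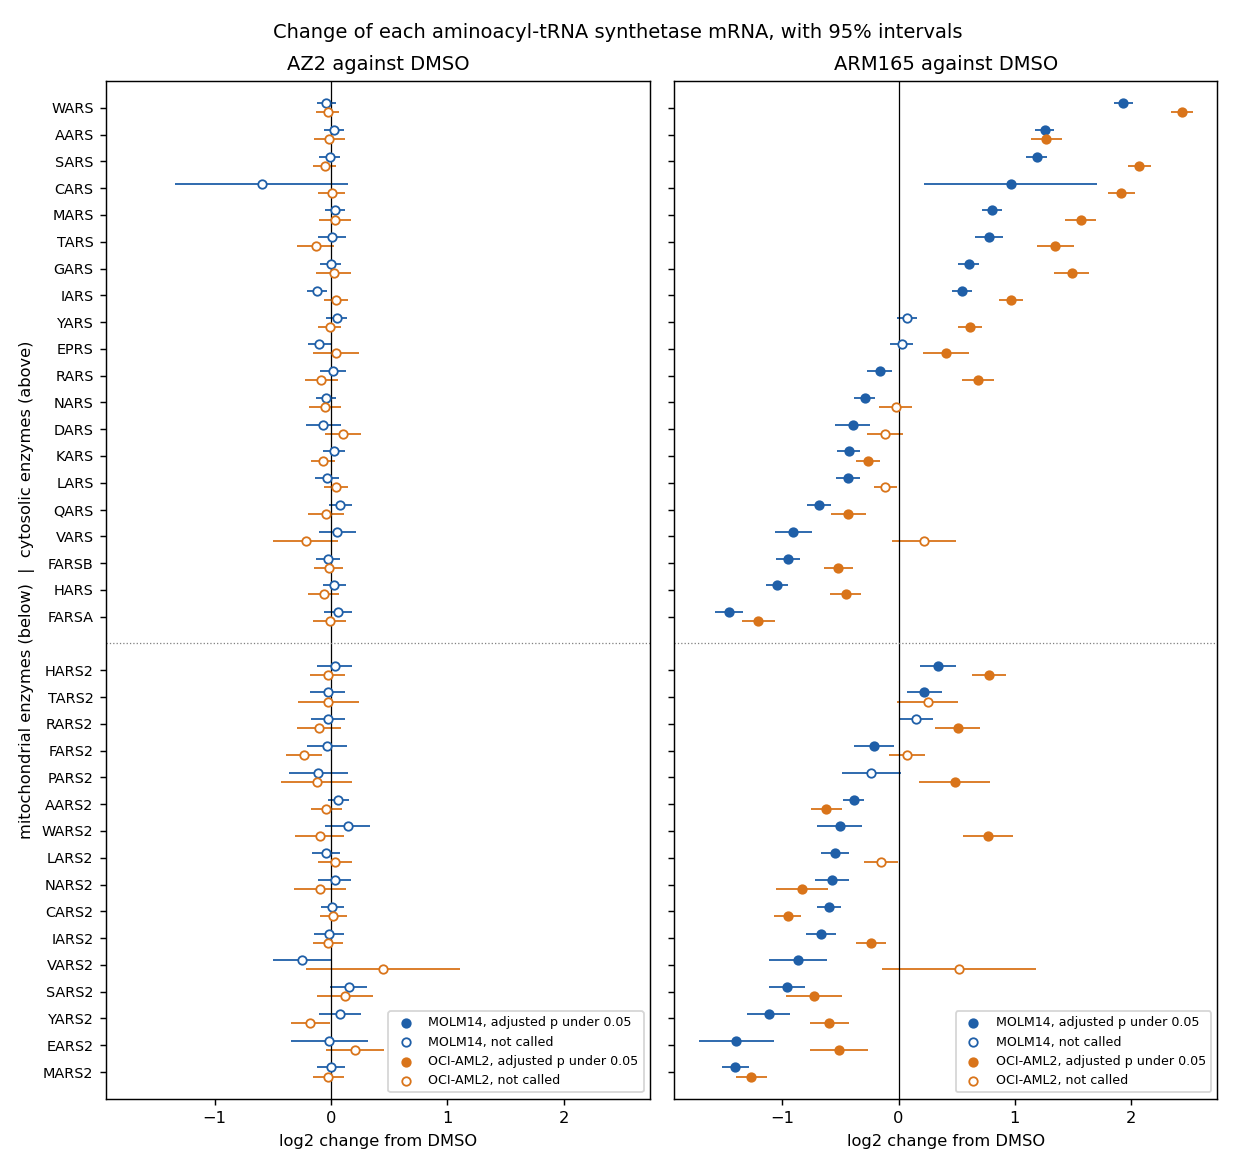
Log2 change from DMSO of each of the 36 synthetase mRNAs with AZ2 (left) and ARM165 (right) in MOLM14 (blue) and OCI-AML2 (orange), with 95% intervals over 4 libraries per group and filled points for an adjusted p under 0.05. No point is filled with AZ2, whereas with ARM165 the changes run from −1.46 (FARSA) to 1.93 (WARS) in MOLM14 and from −1.27 (MARS2) to 2.43 (WARS) in OCI-AML2.

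With ARM165 the cytosolic enzymes of MOLM14 split: 8 of 20 rose and 10 fell, while EPRS and YARS did not pass the test. The risers were the enzymes for tryptophan, alanine, serine, cysteine, methionine, threonine, glycine and isoleucine, and the fallers included both subunits of the phenylalanine enzyme and the enzymes for histidine, valine and glutamine. Over all genes, 35.5% were called higher and 34% lower with ARM165, so a call in either direction was common across the table. The size of change was also like that of other genes, with a median of 0.6 log2 units over the 36 members and 0.627 over all genes.

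WARS rose most in MOLM14, from 3979, 3998, 4318 and 4106 with DMSO to 15460, 15240, 15600 and 16270 with ARM165. Its log2 change was 1.93 ± 0.04 (SE, adjusted p = 6.8e-15) and stood at the 94.2 percentile of all genes. It attaches tryptophan and is also known as an interferon-induced gene. The alanine enzyme AARS went from 3700, 3690, 3746 and 3770 to 8549, 8837, 9029 and 9209, a log2 change of 1.26 ± 0.04 (adjusted p = 6.13e-13). For SARS, the serine enzyme, the values were 4227, 3948, 4141 and 3954 with DMSO and 9005, 8947, 9341 and 9877 with ARM165 (log2 change 1.19 ± 0.04). In each of these the lowest ARM165 library lay far above the highest DMSO library. The methionine enzyme MARS, a member of the multisynthetase complex, rose from 4972, 5054, 4970 and 4782 to 8466, 8475, 8745 and 8838 (log2 change 0.80 ± 0.04). The threonine enzyme TARS rose from 10460, 10040, 10770 and 10120 to 17480, 17290, 16780 and 19680 (log2 change 0.78 ± 0.06). GARS and IARS rose by 0.60 and 0.54 on the log2 scale, and the groups did not overlap in any of these genes.

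CARS, the cysteine enzyme, was an uncertain riser in MOLM14. Its values there were low and scattered, at 62.5, 73.5, 112.1 and 240.2 with DMSO, 71.3, 51.3, 85 and 75.4 with AZ2, and 265.8, 244.9, 213.8 and 132.3 with ARM165. The DMSO and ARM165 groups overlapped, and the log2 change of 0.97 ± 0.35 had an adjusted p of 0.0222. The call was lost without DMSO replicate 1 (adjusted p = 0.0806) or 2 (adjusted p = 0.071) and without ARM165 replicate 1 (adjusted p = 0.0608) or 2 (adjusted p = 0.0537).

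Among the cytosolic enzymes that fell in MOLM14, FARSA, the alpha subunit of the phenylalanine enzyme, fell most. It read 12340, 11940, 13000 and 12300 with DMSO and 4494, 4069, 5011 and 4497 with ARM165, a log2 change of −1.46 ± 0.06 (adjusted p = 5.51e-12). The beta subunit FARSB fell with it, from 5119, 4814, 4963 and 4751 to 2556, 2460, 2408 and 2735 (log2 change −0.95 ± 0.05). HARS, the histidine enzyme, fell from 5369, 5042, 5325 and 5006 to 2379, 2479, 2690 and 2513 (log2 change −1.04 ± 0.05). In these 3 genes every ARM165 library lay below every DMSO library by a wide margin. VARS, the valine enzyme, fell from 2260, 2584, 2663 and 2783 to 1350, 1317, 1462 and 1353 (log2 change −0.90 ± 0.07). The glutamine enzyme QARS fell from 6121, 6031, 6285 and 6406 to 3808, 3803, 4033 and 3833 (log2 change −0.68 ± 0.05). LARS, the leucine enzyme, fell from 4822, 4619, 4918 and 4661 to 3436, 3392, 3599 and 3683 (log2 change −0.43 ± 0.05). These 3 also fell without overlap between the groups. The remaining fallers were KARS (lysine, −0.43), DARS (aspartate, −0.39), NARS (asparagine, −0.29) and RARS (arginine, −0.16). EPRS stayed at 14250 to 15130 with DMSO and 14400 to 15620 with ARM165, a log2 change of 0.03 (95% interval −0.07 to 0.12).

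The mitochondrial enzymes of MOLM14 mostly fell with ARM165: 12 of 16 were lower, HARS2 and TARS2 were higher, and PARS2 and RARS2 were not called. Among all genes of that line, 34% were called lower and 35.5% higher. MARS2, the mitochondrial methionine enzyme, read 2506, 2566, 2615 and 2591 with DMSO and 901.1, 932.5, 1070 and 981.8 with ARM165. Its log2 change was −1.41 ± 0.06 (adjusted p = 6.3e-12), at the 6.17 percentile of all genes. EARS2, the mitochondrial glutamate enzyme, fell from 595, 688.8, 540.3 and 577.1 to 179.2, 196.7, 237.7 and 315.6 (log2 change −1.39 ± 0.15). YARS2, for tyrosine, fell from 2300, 2474, 2518 and 2509 to 1022, 1039, 1287 and 1189 (log2 change −1.12 ± 0.08). As fold values these are 0.378, 0.380 and 0.461, the lowest among the mitochondrial enzymes of this line.

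SARS2, for serine, fell from 647.7, 657.8, 726.4 and 652.4 to 364.5, 346.9, 353.4 and 315.8 (log2 change −0.96 ± 0.07). VARS2, for valine, fell from 887.2, 945.6, 900.6 and 707.3 to 519.8, 434.5, 521.3 and 411.4 (log2 change −0.86 ± 0.12). IARS2, for isoleucine, fell from 2804, 2739, 2813 and 2812 to 1679, 1644, 1742 and 2004 (log2 change −0.66 ± 0.06). No ARM165 library reached a DMSO library in any of the 3. CARS2 (−0.60), NARS2 (−0.57), LARS2 (−0.55), WARS2 (−0.51) and AARS2 (−0.39) also fell. FARS2 had a log2 change of −0.21 ± 0.08 (adjusted p = 0.0275), a call that was lost without DMSO replicate 1 (adjusted p = 0.0875) or 4 (adjusted p = 0.0604) and without ARM165 replicate 2 (adjusted p = 0.0665) or 3 (adjusted p = 0.0502). The mitochondrial histidine and threonine enzymes went the other way. HARS2 rose from 2307, 2484, 2337 and 2366 to 3213, 3041, 2907 and 2851 (log2 change 0.34 ± 0.07, adjusted p = 0.000549). TARS2 read 1270, 1136, 1044 and 1210 with DMSO and 1260, 1334, 1400 and 1434 with ARM165, groups that overlap by 1 library (log2 change 0.22 ± 0.07, adjusted p = 0.0103).

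**Figure D2:**
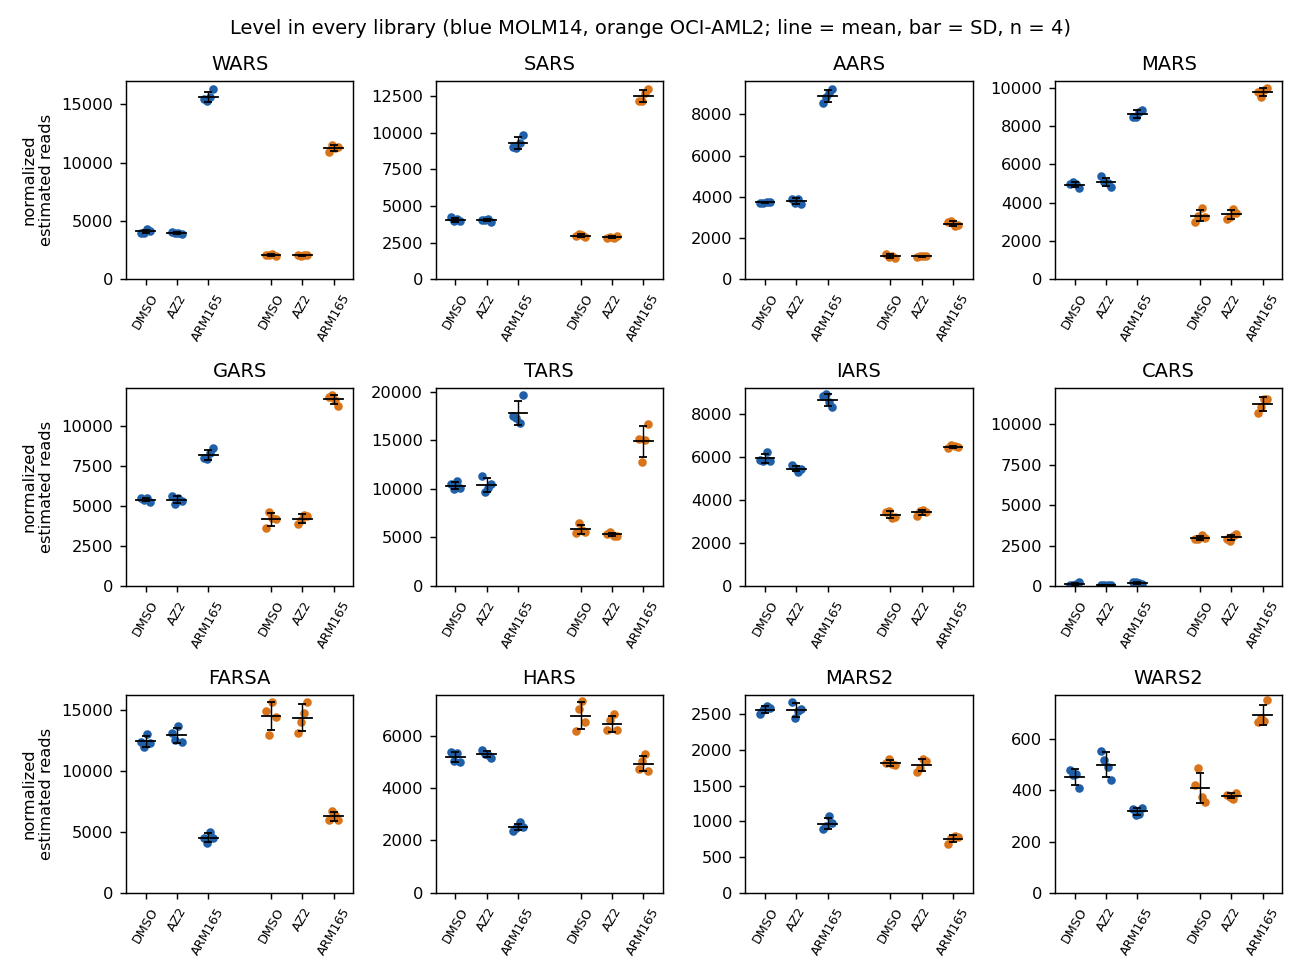
Normalized estimated reads of 12 synthetase genes in every library, by treatment in MOLM14 (blue) and OCI-AML2 (orange), where lines are group means and bars SD over 4 libraries, and each panel has its own axis from 0. WARS with ARM165 sits at 15240 to 16270 in MOLM14 and 10900 to 11540 in OCI-AML2, apart from DMSO and AZ2, while FARSA and MARS2 sit lower in both lines, and levels are not comparable between lines.

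In OCI-AML2 more of the cytosolic enzymes rose with ARM165: 11 of 20 were higher and 5 lower, and DARS, LARS, NARS and VARS were not called. Over all genes, 34.2% were called higher and 31.6% lower. WARS rose from 2043, 2109, 2171 and 2004 with DMSO to 10900, 11540, 11220 and 11370 with ARM165, a log2 change of 2.43 ± 0.05 (adjusted p = 2.27e-15) at the 96.7 percentile of all genes. SARS rose from 2977, 3079, 3011 and 2867 to 12160, 12180, 12700 and 13030 (log2 change 2.07 ± 0.05). CARS, well measured in this line, rose from 2937, 2880, 3164 and 2972 to 10710, 11090, 11580 and 11580 (log2 change 1.91 ± 0.05). The spread within a group was small beside the gap between groups in all 3.

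MARS rose from 3003, 3279, 3704 and 3250 to 9778, 9493, 9856 and 9997 in OCI-AML2 (log2 change 1.57 ± 0.06). GARS, which charges glycine tRNA in both compartments, rose from 3602, 4607, 4242 and 4222 to 11810, 11970, 11620 and 11280 (log2 change 1.49 ± 0.07). TARS rose from 5493, 6534, 5803 and 5535 to 15120, 12770, 15000 and 16690 (log2 change 1.35 ± 0.07). AARS (1.27), IARS (0.96), RARS (0.69), YARS (0.61) and EPRS (0.41) were also higher. All 8 cytosolic risers of MOLM14 were among these 11. Shared rises were common over all genes: 3824 were called higher in both lines, beside 5427 called higher in MOLM14.

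FARSA again fell most among the cytosolic enzymes of OCI-AML2, from 14920, 12930, 15580 and 14410 to 5977, 6672, 6411 and 5933 (log2 change −1.21 ± 0.07, adjusted p = 3.32e-10). FARSB fell from 3865, 4310, 4321 and 4204 to 2916, 2978, 2709 and 3055 (log2 change −0.52 ± 0.06). HARS fell from 6175, 7023, 7320 and 6520 to 4729, 5033, 5287 and 4660 (log2 change −0.45 ± 0.06). Both subunits of the phenylalanine enzyme were thus lower in both lines, by different amounts. QARS fell from 7150, 7259, 6814 and 6748 to 4931, 5804, 5323 and 4751 (log2 change −0.43 ± 0.07). KARS, the lysine enzyme of both compartments, fell from 6410, 7032, 6567 and 6255 to 5339, 5516, 5462 and 5556 (log2 change −0.26 ± 0.05). LARS had a log2 change of −0.11 (95% interval −0.21 to −0.01, adjusted p = 0.0515), and VARS one of 0.22 (95% interval −0.06 to 0.49, adjusted p = 0.153).

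Of the mitochondrial enzymes in OCI-AML2, 8 of 16 fell and 4 rose with ARM165, and FARS2, LARS2, TARS2 and VARS2 were not called. Among all genes of that line, 31.6% were called lower and 34.2% higher. MARS2 fell from 1819, 1880, 1799 and 1791 to 687.8, 770.2, 790.8 and 784 (log2 change −1.27 ± 0.06, adjusted p = 8.04e-11). CARS2 fell from 2231, 2216, 2222 and 2189 to 1115, 1193, 1139 and 1134 (log2 change −0.95 ± 0.05). NARS2, for asparagine, fell from 724.3, 1037, 919.2 and 762.5 to 457.3, 499.5, 495.8 and 464.9 (log2 change −0.83 ± 0.10). The DMSO libraries lay close together for MARS2 and CARS2 and were more scattered for NARS2.

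SARS2 fell from 529.4, 569.2, 603.8 and 523.5 to 308.3, 371.1, 401.2 and 278 in OCI-AML2 (log2 change −0.72 ± 0.11). AARS2, for alanine, fell from 2394, 2084, 2388 and 2367 to 1502, 1554, 1509 and 1425 (log2 change −0.62 ± 0.06). YARS2 fell from 3607, 4161, 3710 and 3886 to 2500, 2344, 2452 and 2884 (log2 change −0.60 ± 0.08). EARS2 (−0.51) and IARS2 (−0.24) also fell, so 8 mitochondrial enzymes were lower in both lines.

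The mitochondrial risers of OCI-AML2 were HARS2, WARS2, RARS2 and PARS2. HARS2 rose from 2253, 2812, 2418 and 2382 to 4151, 3980, 4177 and 4593 (log2 change 0.78 ± 0.07, adjusted p = 7.03e-08). WARS2, for tryptophan, rose from 421.4, 486.7, 373.9 and 353.5 to 667.9, 681, 672.9 and 751.7 (log2 change 0.77 ± 0.10). RARS2, for arginine, rose from 682.1, 817.5, 666.6 and 652.6 to 1041, 873.6, 1040 and 1057 (log2 change 0.51 ± 0.09). The groups stood apart in these 3 genes. PARS2, for proline, read 392.7, 383.7, 503.2 and 292.8 with DMSO and 512.5, 651.1, 497.5 and 510.8 with ARM165, groups that overlap by 1 library (log2 change 0.48 ± 0.14, adjusted p = 0.00754). VARS2 was low and scattered, at 34.4, 60.2, 95.8 and 93.5 in the DMSO libraries and 73.1, 103.7, 83.1 and 126.1 in the ARM165 libraries, so its log2 change of 0.52 had a wide interval (−0.14 to 1.18).

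Against AZ2, which shares the ARM165 libraries with the comparison above, the counts were similar. In MOLM14, 9 cytosolic and 3 mitochondrial enzymes were higher and 10 and 11 lower, against 36.1% and 34% of all genes. In OCI-AML2, 12 and 5 were higher and 7 and 9 lower, against 34.5% and 31.4% of all genes. WARS was higher with ARM165 than with AZ2 by 1.97 in MOLM14 and 2.46 in OCI-AML2 on the log2 scale, and MARS2 had log2 differences of −1.40 and −1.24. No statement on the compounds at matched doses can be made from these values.

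The cytosolic and mitochondrial classes moved apart with ARM165 in both lines. In MOLM14 the median log2 change was −0.07 over the 20 cytosolic enzymes and −0.56 over the 16 mitochondrial ones, against 0.03 over all genes. In OCI-AML2 the medians were 0.51 and −0.19, against 0.03 over all genes. Taken library by library, as each gene's log2 value less its DMSO mean, the cytosolic median less the mitochondrial one was 0.465, 0.439, 0.513 and 0.498 in the ARM165 libraries of MOLM14. The DMSO libraries of that line lay between −0.0346 and 0.0335 and the AZ2 libraries between −0.0177 and 0.0388. In OCI-AML2 the ARM165 libraries gave 0.611, 0.885, 0.596 and 0.669, the DMSO libraries −0.0286 to 0.0243 and the AZ2 libraries −0.0197 to 0.0388. The ARM165 libraries lay above all others in both lines. The DMSO libraries centre near 0 by construction, since each gene's DMSO mean was subtracted. With ARM165 the median size of change over all genes was 0.627 in MOLM14 and 0.663 in OCI-AML2, and other lists of genes were not compared. The separation of libraries therefore does not set these classes apart from other lists. These class medians carry no test because the members were listed with earlier results known.

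Pairing enzymes of the same amino acid gave 17 pairs (EPRS and FARS2 enter 2 each). The log2 ratio of the cytosolic to the mitochondrial enzyme was higher in every ARM165 library than in every DMSO library for 9 pairs in MOLM14 and 11 in OCI-AML2. It was lower in every ARM165 library for 4 and 3 pairs, and the groups overlapped for the other 4 and 3, in MOLM14 those of cysteine, proline, leucine and valine. The median differences over the 17 pairs were 0.559 and 0.919 log2 units, given as a description, since pairs have no reference over all genes here. With AZ2 the median differences were −0.00201 and 0.0276. The tryptophan pair differed most in MOLM14, with WARS at 1.93 and WARS2 at −0.51, a difference of 2.44. The methionine pair, MARS less MARS2, differed by 2.21 in MOLM14 and 2.83 in OCI-AML2, and the serine pair, SARS less SARS2, by 2.15 and 2.79. The cysteine pair differed by 2.86 in OCI-AML2, where both genes were well measured. In these pairs the cytosolic mRNA was higher and the mitochondrial one lower, except for WARS2 in OCI-AML2.

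Some amino acids went the other way. HARS less HARS2 differed by −1.38 in MOLM14 and −1.23 in OCI-AML2, since HARS fell and HARS2 rose in both lines. FARSA less FARS2 differed by −1.25 and −1.28, and FARSB less FARS2 by −0.74 and −0.59. The leucine pair moved together, with differences of 0.12 and 0.04, and the arginine pair changed sign between lines, from −0.31 in MOLM14 to 0.18 in OCI-AML2. The difference between classes was therefore not shared by every amino acid.

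**Figure D3:**
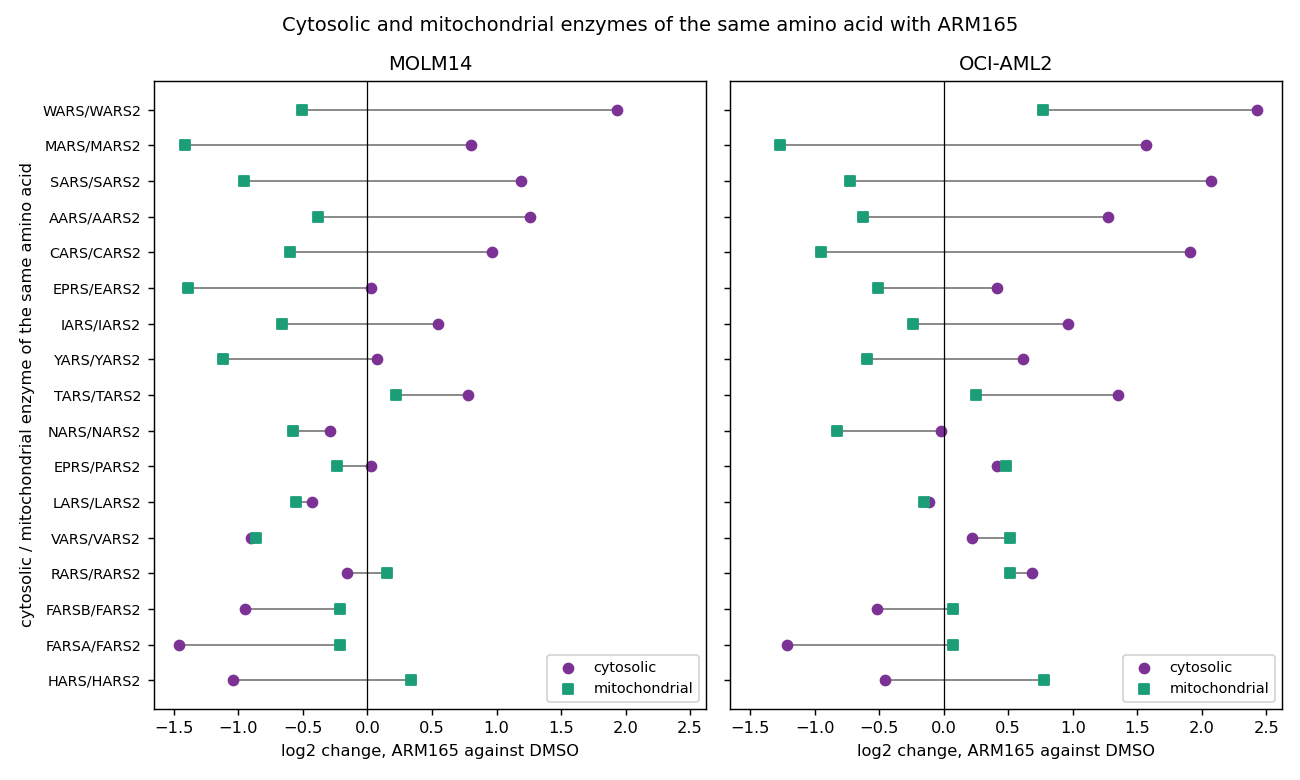
Log2 change with ARM165 against DMSO of the cytosolic enzyme (purple circle) and the mitochondrial enzyme (green square) of each of 17 amino acid pairs, joined by a line, in MOLM14 (left) and OCI-AML2 (right). Tryptophan, methionine, serine, alanine and cysteine have the circle far to the right of the square in both lines, and the histidine and phenylalanine pairs have it to the left.

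The multisynthetase complex held both risers and fallers. Of its 8 members, 2 rose and 5 fell in MOLM14 (MARS and IARS rose) and 4 rose and 2 fell in OCI-AML2 (MARS, IARS, RARS and EPRS rose). Of the 12 free-standing genes, 6 rose and 5 fell in MOLM14, and 7 rose and 3 fell in OCI-AML2. The structural classes, which differ in the fold of the catalytic domain and were added after the values were seen, held 4 risers and 4 fallers of 9 (class I) and 4 risers and 6 fallers of 10 (class II) in MOLM14. In OCI-AML2 they held 6 and 1, and 4 and 4. EPRS, which joins a class I and a class II enzyme, was left out of that count. The shares over all genes beside these counts were 35.5% higher and 34% lower in MOLM14, and 34.2% and 31.6% in OCI-AML2. With so few genes in each group, the counts are given as a description. GARS and KARS, the genes that serve both compartments, moved in opposite directions in both lines.

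Of the cytosolic enzymes 8 were called higher and 5 lower in both lines, and of the mitochondrial ones HARS2 was higher and 8 were lower in both. Among the 14287 genes tested in both lines, 26.8% were called higher and 24.6% lower in both. RARS and WARS2 were called in opposite directions, as were 4.45% of those genes. RARS, the arginine enzyme, read 2197, 2061, 2155 and 2038 with DMSO and 1815, 1905, 1861 and 1972 with ARM165 in MOLM14, and 1744, 1800, 1563 and 1535 and then 2737, 2478, 2674 and 2783 in OCI-AML2. WARS2 read 478.1, 459.6, 464.1 and 407.9 with DMSO and 329.2, 305.3, 306.3 and 330.8 with ARM165 in MOLM14, against its rise in OCI-AML2 given above.

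The ARM165 change, with its sign, was tested between the lines in a single fit. The change was more upward in OCI-AML2 for 19 of 20 cytosolic and 10 of 16 mitochondrial enzymes and more downward for AARS2 and CARS2. Over all genes, 24.3% were more upward and 18.1% more downward. For enzymes that fell in both lines, such as FARSA (−1.46 and −1.21), more upward means a smaller fall in OCI-AML2. The median difference was 0.47 log2 units over the cytosolic and 0.38 over the mitochondrial enzymes, against 0.04 over all genes. VARS2 (1.38), WARS2 (1.28, adjusted p = 2.88e-08) and VARS (1.12, adjusted p = 2.44e-06) differed most, followed by CARS (0.95) and GARS (0.89, adjusted p = 4.86e-09). The place of VARS2 is uncertain, since its values were low and scattered in OCI-AML2. Within that line neither VARS2 (adjusted p = 0.157) nor VARS (adjusted p = 0.153) was called with ARM165 in limma. The serine enzyme SARS differed by 0.88 ± 0.06 (adjusted p = 1.44e-11). AARS alone among the cytosolic enzymes did not pass the test, with a difference of 0.01 ± 0.07 (adjusted p = 0.892) after near-equal rises in both lines. AARS2 and CARS2, which fell in both lines, fell further in OCI-AML2, by differences of −0.24 (adjusted p = 0.00758) and −0.35 (adjusted p = 7.55e-05).

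Of these 31 line differences, 6 lay near the threshold, with adjusted p from 0.0217 (QARS) to 0.0443 (CARS), and lost their call in some alternatives with every library kept as well as without single libraries. With no filter on low values the adjusted p was 0.0744 for CARS, 0.0527 for DARS, 0.0567 for KARS, 0.0547 for FARS2 and 0.05 for FARSA. Under quantile normalization it was 0.0538 for QARS and 0.152 for FARS2. The differences stayed above 0 in every alternative run. The CARS difference was lost without any of the DMSO or ARM165 libraries of OCI-AML2 and without DMSO or ARM165 replicates 3 or 4 of MOLM14 (values 0.552 to 0.973, adjusted p up to 0.11). DARS lost its call without DMSO replicates 1 or 3 or ARM165 replicates 1 or 3 of MOLM14, or DMSO replicates 1, 3 or 4 or ARM165 replicates 1, 3 or 4 of OCI-AML2 (adjusted p up to 0.088). KARS lost it without DMSO replicates 1 or 3 or ARM165 replicates 1, 2 or 3 of MOLM14, or DMSO replicates 1, 3 or 4 or ARM165 replicates 2, 3 or 4 of OCI-AML2 (adjusted p up to 0.0841). FARS2 lost it without DMSO replicates 1 or 4 or ARM165 replicates 2 or 3 of MOLM14, or DMSO replicate 3 or ARM165 replicates 1 or 2 of OCI-AML2 (adjusted p up to 0.0842). FARSA lost it without DMSO replicate 3 or ARM165 replicate 2 of MOLM14, or DMSO replicate 2 or ARM165 replicates 2 or 3 of OCI-AML2 (adjusted p up to 0.0775). QARS lost it without ARM165 replicate 2 of OCI-AML2 (adjusted p = 0.0574).

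**Figure D4:**
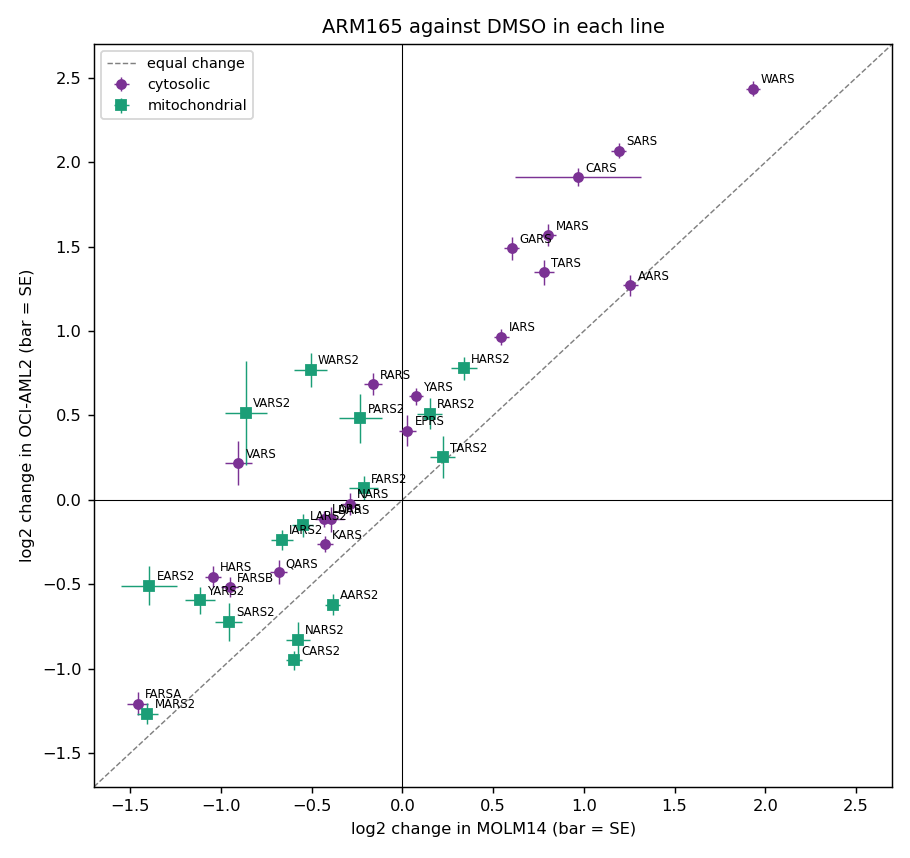
Log2 change with ARM165 against DMSO in MOLM14 (x axis) and OCI-AML2 (y axis) for the 20 cytosolic (purple circles) and 16 mitochondrial (green squares) synthetase genes, with bars of 1 SE. Most points lie above the dashed line of equal change, AARS lies on it, and AARS2, CARS2 and NARS2 lie below it.

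Other genes of tRNA charging were read from lists set beside the members. SEPSECS, which makes selenocysteine on its tRNA, rose by 1.40 (adjusted p = 1.45e-08) and 1.61 (adjusted p = 1.79e-07) on the log2 scale. Of the 11 other charging and proofreading enzymes listed, SEPSECS among them, 4 rose and 5 fell in MOLM14, and 1 rose and 3 fell in OCI-AML2. Among all genes, 35.5% were called higher and 34% lower in MOLM14, and 34.2% and 31.6% in OCI-AML2. Of the 3 scaffold proteins of the multisynthetase complex, EEF1E1 (log2 changes −1.05 and −1.33) and AIMP2 (−0.26 and −0.28) fell in both lines, and AIMP1 rose in OCI-AML2 (0.47).

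No gene for tRNA maturation or delivery was called higher in either line, beside 35.5% of all genes in MOLM14 and 34.2% in OCI-AML2. The shares of all genes called lower were 34% and 31.6%. Of 8 maturation genes, 6 fell in MOLM14 and 4 in OCI-AML2, with falls in POP1, a subunit of RNase P (−1.96, adjusted p = 8.14e-13, and −1.32, adjusted p = 1.89e-09), and in ELAC2, which trims the 3′ end (log2 change −0.69 in OCI-AML2). Of 6 delivery genes, all fell in MOLM14 and 3 fell in OCI-AML2. The mitochondrial elongation factors TUFM (−0.94 and −0.73) and TSFM (−1.05 and −0.77) were among them in both lines. EEF1A1, which brings charged tRNA to the cytosolic ribosome, changed by −1.56 and −1.33. Under quantile normalization the MOLM14 values became 0.06 for EEF1G and 0.05 for EEF1B2, so the direction of both in MOLM14 depends on the scaling. EEF1A1 held rank 1 in every MOLM14 library, where that method gives 0 by construction and measures no change.

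ATF4 and most of the listed genes downstream of it rose with ARM165, while the genes of the GCN2 sensor of uncharged tRNA were not called higher. Of 17 genes of the sensing and ATF4 list, 12 were called higher and 3 lower in MOLM14, and 14 higher and 1 lower in OCI-AML2, beside 35.5% and 34.2% of all genes called higher. The 3 lower ones in MOLM14 were GCN1, EIF2AK1 and a gene of the ATF4 arm, so the genes of that arm did not all rise there. ATF4 mRNA read 51850, 49610, 50570 and 49210 with DMSO and 76300, 73730, 77920 and 85370 with ARM165 in MOLM14 (log2 change 0.64 ± 0.05, adjusted p = 2.12e-08). In OCI-AML2 it read 53770, 53590, 56460 and 51510 and then 238200, 234900, 243700 and 248100 (log2 change 2.16 ± 0.05, adjusted p = 1.68e-14). The rise was larger in OCI-AML2 by 1.53 (adjusted p = 2.79e-14). A more upward change in OCI-AML2 was also called for 19 of the 20 cytosolic and 10 of the 16 mitochondrial synthetases. For those that fell in both lines it was a smaller fall, and the share over all genes was 24.3%. Whether the ATF4 rise is linked to the synthetase changes was not tested. ASNS, the asparagine synthetase and an ATF4 target, rose by 0.73 and 1.58, more in OCI-AML2 by 0.86 (adjusted p = 5.94e-08). DDIT3, which encodes CHOP, rose by 3.91 and 4.56, and ATF3 by 4.88 and 5.06. TRIB3, another ATF4 target, rose by 3.71 in MOLM14 and by 2.07 in OCI-AML2, less in OCI-AML2 by a difference of −1.64 (adjusted p = 3.59e-12). The GCN2 gene EIF2AK4 itself was not called, at −0.20 (adjusted p = 0.104) and −0.17 (adjusted p = 0.0886). GCN1, which GCN2 needs to sense uncharged tRNA, fell by 0.34 in MOLM14 (adjusted p = 0.000338) and was not called in OCI-AML2 (−0.22, adjusted p = 0.107). Of the other kinases that act on the same initiation factor, the PERK gene EIF2AK3 rose by 2.15 (adjusted p = 4.4e-10) and 2.57 (adjusted p = 1.73e-10), and the HRI gene EIF2AK1 fell by 0.38 (adjusted p = 0.000806) and 0.38 (adjusted p = 2.59e-05). These are mRNA levels, the activity of the kinases was not measured, and the part of any of them was not tested.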

How the data were processed

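Total RNA was column-purified and turned into stranded poly(A) libraries, per the labels' protocols. Transcripts were quantified with kallisto, per the submitters' processing notes, whose version, build, annotation, summing to genes and scaling are not given in the sources used here. The authors' deposited signal values are normalized estimated reads per gene symbol, in 1 table per line (0 columns left out). After division by the value of 1 read, 15.1 to 15.9% of values lay within 0.01 of a whole number, so whole reads were not recovered and count tests were not run.

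Values were taken as log2(value + 1), so folds of low genes are understated. The filter on low values asked for 10 or more in 4 or more of a line's libraries. limma 3.58.1 (statmod 1.5.0, R 4.3.3) was fitted to the 12 libraries of each line with 1 mean per group, a variance trend and empirical Bayes moderation, and to all 24 libraries for differences between lines (14287 genes). P-values are two-sided and Benjamini-Hochberg adjusted across every gene in the fit, with calls at adjusted values below 0.05. Changes on the log2 scale had median standard errors of 0.099 (MOLM14), 0.115 (OCI-AML2) and 0.148 (between lines). The fits were also run on simulated data in which few genes changed. That setting is unlike ARM165, where most genes were called, so the run lends no weight to the ARM165 calls. Alternatives were pseudocounts of 0.5 and 5, no filter, quantile or trimmed-mean scaling, no variance trend, only the 2 groups compared, a replicate block and leaving out each library. Every listed enzyme could be named, and the up to 6 called members of a class with the largest changes in each direction are given by library. The members and lists were chosen with earlier results of these data known. Sequences come from the RefSeq promoter table (GRCh38.p14), matched by symbol (older symbols through synonyms), and gene models from GENCODE 29. Plots used matplotlib 3.10.9 (Python 3.11.15).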

Additional observations from a re-analysis of the deposited data

Results flagged for a closer look

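In 11 of 216 groups of 4 libraries, 1 library stood apart from the other 3 by Dixon's test at the 95% level. That is 5.09% of groups, and chance alone would give about 5% if the groups were independent. Genes of a library are not independent, and the flags were not spread evenly. Several fell in OCI-AML2 ARM165 replicate 2, which also had the largest cytosolic less mitochondrial median (0.885). The 11 flags are listed by line. In MOLM14 these were IARS at 6221 (the others 5784 to 5851) and SARS2 at 726.4 (647.7 to 657.8) in DMSO replicate 3, IARS2 at 2739 (2804 to 2813) in DMSO replicate 2 and QARS at 4033 (3803 to 3833) in ARM165 replicate 3. In OCI-AML2 DMSO replicate 2 they were DARS at 1928 (1590 to 1620) and AARS2 at 2084 (2367 to 2394). In OCI-AML2 ARM165 replicate 2 they were EPRS at 13470 (10150 to 10470), IARS2 at 2124 (2447 to 2457), PARS2 at 651.1 (497.5 to 512.5) and RARS2 at 873.6 (1040 to 1057). WARS2 in OCI-AML2 ARM165 replicate 4 was at 751.7 (667.9 to 681).

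The log2 change with ARM165 differed between the lines, OCI-AML2 less MOLM14, by a test of the difference itself in limma for 31 enzymes. Among the cytosolic enzymes the differences were VARS 1.12, CARS 0.945, GARS 0.888, SARS 0.877, RARS 0.848, MARS 0.764, HARS 0.589, TARS 0.566, YARS 0.538 and WARS 0.503. The smaller ones were FARSB 0.434, IARS 0.42, EPRS 0.383, LARS 0.318, DARS 0.279, NARS 0.267, QARS 0.252, FARSA 0.25 and KARS 0.164. Among the mitochondrial enzymes they were VARS2 1.38, WARS2 1.28, EARS2 0.886, PARS2 0.715, YARS2 0.52, HARS2 0.441, IARS2 0.428, LARS2 0.399, RARS2 0.359 and FARS2 0.283, with AARS2 at −0.237 and CARS2 at −0.354.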

How the results depend on the processing

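The counts of called cytosolic and mitochondrial enzymes stayed within 1.5 times their value in every alternative run. The cytosolic less the mitochondrial median change with ARM165 in MOLM14 was 0.495 and became 0.609 under quantile normalization, and it was 0.476 to 0.512 with each library left out. In OCI-AML2 it was 0.705 and 0.625 to 0.741. Of the members called with ARM165, 30 of 32 in MOLM14 (not CARS and FARS2) and 28 of 28 in OCI-AML2 kept their call in all 20 alternatives, as did 25 of 31 line differences in all 31. Calls were gained in some alternatives by EPRS, YARS, PARS2 and RARS2 in MOLM14 and by DARS, LARS, LARS2 and TARS2 in OCI-AML2.

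In 5 cases the sign changed. Under quantile normalization EEF1A1 in MOLM14 became 0 (adjusted p = 1), EEF1B2 0.0457 (adjusted p = 0.122) and EEF1G 0.0578 (adjusted p = 0.0184), and FARS2 in OCI-AML2 −0.0105 (adjusted p = 0.911). NARS in OCI-AML2, never called, became 0.037 (adjusted p = 0.6) without DMSO replicate 2, and ranged down to −0.0688 without DMSO replicate 3. The cause was not tested. EEF1A1 held rank 1 in every MOLM14 library, so its 0 is by construction. Quantile normalization moved the median of all genes for ARM165 against AZ2 in MOLM14 from 0.0404 to −0.0662, and no other alternative moved a comparison's median by over 0.1.

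Libraries of the same number deviated together little, if at all (correlations −0.0262 to 0.0558 in MOLM14 and −0.0373 to 0.0468 in OCI-AML2). In each line, 5 of 12 comparisons of a library with another group were closest to their own number. Between AZ2 and ARM165 the correlations of the same number were all positive (0.00939 to 0.0558). Pairing by number, if any, was therefore weak. With a replicate block the called cytosolic and mitochondrial enzymes with ARM165 numbered 18 and 14 in MOLM14 and 16 and 12 in OCI-AML2, as without it, and the line differences 16 and 12 in place of 19 and 12, with CARS, DARS and KARS not called.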
